A study of Rattus norvegicus with 35 samples.

Results

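The genes described here are Car3, Cyp2c11, Obp3, Ust5r, Slc22a8 and Stac3, 6 of the 13439 rat genes that could be tested on these liver arrays. They were taken as a set by symbol, chosen by the large negative difference between ligated sham and control sham livers in the same arrays. Every probe set that carries 1 gene symbol was read for them, which gave 9 of the 19069 such probe sets on the array. Total RNA from the livers of 35 rats was hybridised to single-colour Affymetrix arrays. Secondary biliary cirrhosis had been produced by tying and resecting the common bile duct, and ligated rats were given vitamin K every week and studied 4 weeks after surgery. The 6 groups were ligated rats given simvastatin and put through hemorrhage and resuscitation (simvastatin H/R, n = 8), ligated rats given simvastatin and a sham procedure (simvastatin sham, n = 5), ligated rats without the drug after hemorrhage and resuscitation (ligated H/R, n = 6) or the sham procedure (ligated sham, n = 5), and control rats after hemorrhage and resuscitation (control H/R, n = 6) or the sham procedure (control sham, n = 5). Simvastatin, an inhibitor of the enzyme that commits acetyl-CoA to cholesterol synthesis, was suspended in distilled water and given by gavage at 5 mg/kg daily, starting 3 days ahead of the experiment and ending 1 h ahead of it. The labels do not state whether ligated rats without the drug were gavaged with water, nor the strain, sex or age of the rats, nor whether control rats had a sham ligation.

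Many hepatocyte genes of the rat are read at different rates in males and females because the pituitary releases growth hormone in separated pulses in males and more evenly in females. Each pulse acts through the growth hormone receptor and the kinase Jak2, which activates the transcription factor Stat5b. Cyp2c11, the male-specific cytochrome P450 that hydroxylates testosterone, is the classical gene of this system, and hepatic Car3 and the alpha-2u-globulin group of lipocalins, to which Obp3 belongs, are also known as male-predominant in rats. Ust5r and Slc22a8 encode relatives in the family of organic anion transporters. Stac3 is known for its part in excitation-contraction coupling of skeletal muscle. No group of the study had its growth hormone altered, so dependence on the hormone is background knowledge and was not measured here.

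Each value is a normalized log2 signal of a probe set on 1 array, so that a difference of 1 is a factor of 2 in signal. A gene was called at background in a group where its mean did not exceed the mean of the brightest nonspecific control probe of those arrays. That level averaged 3.32 in simvastatin H/R, 3.26 in simvastatin sham, 4.00 in ligated H/R, 3.64 in ligated sham, 4.59 in control H/R and 4.51 in control sham arrays. Measured against it, the 6 genes were not all lost in cirrhosis. Slc22a8 and Stac3 were at background in all 4 ligated groups. Car3 and Obp3 were at background only in the simvastatin groups, and Cyp2c11 and Ust5r stayed above it in all 6 groups. Since whole liver was measured, fewer hepatocytes and less RNA per hepatocyte cannot be told apart.

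**Figure D1:**
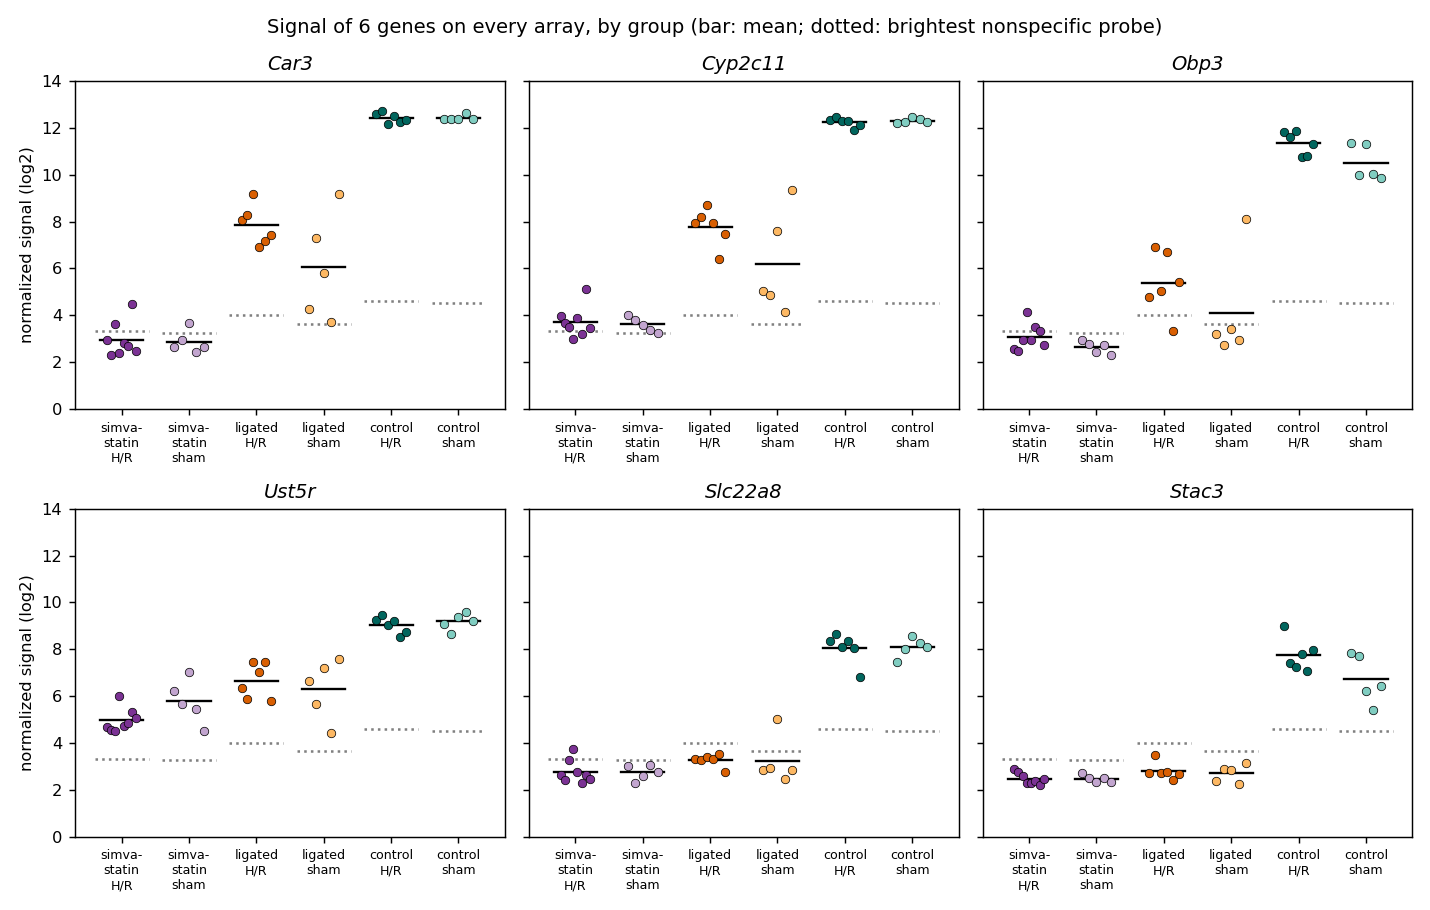
Normalized log2 signal of the 6 genes on each of the 35 arrays (points), by group, with the group mean (bar) and the brightest nonspecific control probe of the group (dotted). For all 6 genes the ligated arrays, with and without simvastatin, sit below every control array, and Car3 and Cyp2c11 are lower in both simvastatin groups than in the matching untreated ligated groups.

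Car3 encodes carbonic anhydrase 3, a cytosolic enzyme with weak hydratase activity that is abundant in muscle, fat and male rat liver. In simvastatin H/R livers its log2 signal ran from 2.31 to 4.50 with a median of 2.75, and in simvastatin sham livers it was 2.64, 2.94, 3.66, 2.43 and 2.63. Ligated H/R livers without the drug gave 6.91 to 9.17 with a median of 7.75, and ligated sham livers gave 4.28, 7.28, 5.80, 3.73 and 9.18. Control H/R livers gave 12.18 to 12.73 with a median of 12.42, and control sham livers 12.36, 12.40, 12.38, 12.65 and 12.38. The 5 ligated sham livers thus spread over more than 5 log2 units (SD 2.23), whereas the SD of control sham livers was 0.12. In the order of means, the step below control H/R was the only one between neighbouring groups whose ranges did not overlap.

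The second Car3 probe set, which is dimmer, put ligated H/R livers at background as well, and there the difference between simvastatin H/R and ligated H/R was -1.24 against -4.87 on the brighter one. Its direction was the same in the comparisons of cirrhosis and of simvastatin. Both values of a pair at background give no measure of a fold, so the brighter probe set is used below.

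Cyp2c11 gave 2.98 to 5.12 with a median of 3.58 in simvastatin H/R livers, and 4.02, 3.80, 3.60, 3.37 and 3.26 in simvastatin sham livers. In ligated H/R livers it ran from 6.40 to 8.69 with a median of 7.94, and in ligated sham livers it was 5.03, 4.87, 7.60, 4.13 and 9.34. Control H/R livers lay between 11.92 and 12.46 with a median of 12.29, and control sham livers gave 12.19, 12.25, 12.46, 12.38 and 12.27. The group order was that of Car3, and again the ranges of neighbouring groups were separated only between control H/R and ligated H/R. The ligated sham liver with the most Car3, replicate 5, also had the most Cyp2c11. Probe sets of the Cyp2c family may share sequence, so this signal can include that of close relatives. The means of Cyp2c11 in simvastatin H/R (3.72) and simvastatin sham livers (3.61) lay close to the nonspecific means of 3.32 and 3.26. There 5 of 8 and 4 of 5 arrays exceeded their own nonspecific level, so its folds below that use these groups rest on signals near the floor.

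Obp3, a small secreted carrier protein of the lipocalin family, gave 2.48 to 4.14 with a median of 2.94 in simvastatin H/R livers and 2.96, 2.77, 2.44, 2.75 and 2.32 in simvastatin sham livers. Ligated H/R livers gave 3.34 to 6.90 with a median of 5.22. Ligated sham livers gave 3.21, 2.74, 3.42, 2.93 and 8.10, so 4 of the 5 were under the nonspecific level of their group and replicate 5 alone carried the mean above it. Control H/R livers gave 10.74 to 11.86 with a median of 11.46, and control sham livers 11.36, 9.97, 11.32, 10.05 and 9.85. The probe set types of Obp3 (_a and _x) are ones that can match more than 1 transcript of a gene family, here the alpha-2u-globulins. Its second probe set gave a difference of -5.36 between ligated H/R and control H/R, against -6.00 on the brighter one.

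Ust5r, a transporter-like membrane protein of rat liver, gave 4.53 to 6.01 with a median of 4.81 in simvastatin H/R livers and 6.23, 5.68, 7.03, 5.43 and 4.49 in simvastatin sham livers. Ligated H/R livers gave 5.79 to 7.47 with a median of 6.69, and ligated sham livers 6.65, 5.66, 7.19, 4.43 and 7.57. Control H/R livers gave 8.54 to 9.48 with a median of 9.12, and control sham livers 9.09, 8.66, 9.39, 9.60 and 9.21. Its mean was lowest in simvastatin H/R livers, 4.98 ± 0.49 (SD, n = 8), against 5.77 ± 0.94 (SD, n = 5) in simvastatin sham livers, and the ranges of those groups overlapped.

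Slc22a8, the organic anion transporter known as OAT3, gave 2.30 to 3.73 with a median of 2.62 in simvastatin H/R livers and 3.03, 2.31, 2.60, 3.08 and 2.77 in simvastatin sham livers. Ligated H/R livers gave 2.77 to 3.51 with a median of 3.33, and ligated sham livers 2.83, 2.94, 5.02, 2.46 and 2.84. Control H/R livers gave 6.81 to 8.64 with a median of 8.23, and control sham livers 7.45, 8.03, 8.58, 8.26 and 8.10. A single ligated sham liver, replicate 3, stood above background. The second Slc22a8 probe set was dimmer, with means of 5.84 in control H/R and 5.94 in control sham livers. It gave -2.52 between ligated H/R and control H/R, against -4.79 on the brighter one, and -2.87 against -5.28 for simvastatin H/R. The bounds below are those of the brighter probe set and do not extend to the dimmer one.

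Stac3 gave 2.19 to 2.90 with a median of 2.40 in simvastatin H/R livers and 2.71, 2.49, 2.35, 2.49 and 2.34 in simvastatin sham livers. Ligated H/R livers gave 2.41 to 3.49 with a median of 2.71, and ligated sham livers 2.38, 2.89, 2.84, 2.25 and 3.14. Control H/R livers gave 7.08 to 8.98 with a median of 7.62, and control sham livers 7.85, 7.70, 6.20, 5.42 and 6.45. Beside the Stac3 signal of control livers, 12 of 12 measured skeletal muscle markers, among them Ckm, Ryr1 and Cacna1s, were at background in both control groups. The mean signal of the 12 ran from 2.87 to 4.35 over ligated H/R arrays, with a median of 2.97. It ran from 2.77 to 3.12 over simvastatin H/R and from 2.83 to 3.19 over control H/R arrays. Muscle is also rich in Car3, and the part of this signal in the Car3 values was not tested.

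The promoters of the genes are shown because the 6 move together and 3 of them are classical targets of one hormone. RefSeq's table for the GRCr8 assembly held 5 of the 6, and Car3 was not among them. The 250 bases before each annotated start follow in lower case, from 5′ to 3′ on the gene's strand, with matches to the searched motifs in capitals.
Cyp2c11, chr1:246174966-246175215, + strand: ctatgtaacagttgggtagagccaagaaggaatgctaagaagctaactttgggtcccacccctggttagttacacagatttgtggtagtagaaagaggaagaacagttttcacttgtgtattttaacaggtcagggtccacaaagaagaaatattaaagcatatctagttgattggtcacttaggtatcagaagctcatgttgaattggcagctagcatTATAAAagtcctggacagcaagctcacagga
Obp3, chr5:79640676-79640925, - strand: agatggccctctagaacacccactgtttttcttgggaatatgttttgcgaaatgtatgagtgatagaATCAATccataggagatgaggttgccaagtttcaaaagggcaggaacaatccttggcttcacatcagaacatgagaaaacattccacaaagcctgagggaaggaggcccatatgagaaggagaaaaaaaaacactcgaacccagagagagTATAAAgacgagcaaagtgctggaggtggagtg
Ust5r, chr1:214715535-214715784, - strand: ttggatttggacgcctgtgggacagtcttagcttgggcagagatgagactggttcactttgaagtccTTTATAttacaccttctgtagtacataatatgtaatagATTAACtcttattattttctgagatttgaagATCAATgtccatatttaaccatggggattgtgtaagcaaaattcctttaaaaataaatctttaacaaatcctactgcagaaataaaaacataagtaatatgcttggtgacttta
Slc22a8, chr1:214927034-214927283, + strand: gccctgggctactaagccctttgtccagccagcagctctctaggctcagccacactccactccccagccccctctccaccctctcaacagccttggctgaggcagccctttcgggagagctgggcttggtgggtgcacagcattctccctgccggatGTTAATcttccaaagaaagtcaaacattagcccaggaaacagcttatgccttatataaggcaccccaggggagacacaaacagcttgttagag
Stac3, chr7:65228225-65228474, + strand: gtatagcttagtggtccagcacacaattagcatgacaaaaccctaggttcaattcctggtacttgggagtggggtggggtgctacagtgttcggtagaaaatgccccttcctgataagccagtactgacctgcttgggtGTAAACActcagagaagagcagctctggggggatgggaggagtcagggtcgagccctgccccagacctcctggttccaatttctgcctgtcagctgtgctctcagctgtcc
The motifs were searched on both strands: the Stat5 palindrome TTCNNNGAA, the TATA box TATAAA, the core ATTGAT of sites for HNF6 (Onecut1), the HNF1 core GTTAAT and the forkhead core TGTTTAC. No 2 matches overlap in these windows. A TATA box lies 31 bases before the start in Cyp2c11 and 33 in Obp3, and on the other strand 183 bases before it in Ust5r. The HNF6 core lies 183 bases before the start in Obp3 and 114 in Ust5r, the HNF1 core 145 in Ust5r and 93 in Slc22a8, and the forkhead core 111 in Stac3. The Stat5 letters are in none of the 5 windows, which says only that these letters are absent from them. Among all 33469 promoter windows of the same length, 7.67% hold the Stat5 palindrome, 12.9% the TATA box, 7.1% the HNF6 core, 6.45% the HNF1 core and 3.21% the forkhead core.

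Ust5r and Slc22a8 lie in one cluster of transporter genes on chromosome 1, in the order Slc22a24, UST4r, Ust5r, Slc22a25, Slc22a8 and Slc22a6 in RefSeq, with an unnamed gene between UST4r and Ust5r. All 6 were measured. Between ligated H/R and control H/R livers, the difference was -1.46 for UST4r (adjusted p = 0.00043 by limma), -1.27 for Slc22a25 (adjusted p = 8.2e-06), -0.43 for Slc22a24 (adjusted p = 0.04) and -0.23 for Slc22a6 (adjusted p = 0.075). The group means of Slc22a24, Slc22a25 and Slc22a6 were all under 4 in both groups and so at background, which left UST4r, at 5.13 in ligated H/R and 6.59 in control H/R livers, as the other measurable neighbour. Car3 lies between Car2 and Car1 on chromosome 2. Car2, the widely expressed fast isozyme, averaged 8.78 in ligated H/R and 6.49 in control H/R livers (log2 change 2.28, adjusted p = 3.8e-08), and Car1 was at background in both.

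Ligated sham against control sham was taken as the comparison that chose the genes, so its values only describe them. Obp3 differed by -6.43, Car3 by -6.38, Cyp2c11 by -6.12, Slc22a8 by -4.87, Stac3 by -4.02 and Ust5r by -2.89 on the log2 scale. All 6 met the call rule used below, an adjusted p under 0.05, and in that comparison 22.4% of all genes tested were called lower. Every ligated sham array lay under every control sham array for all 6, as for 13.3% of genes. By size of the difference the genes stood at places 1, 2, 3, 4, 8 and 27 of all 13439, and no stated threshold separates them from genes that were left out, such as Gstp3 at place 6 with -4.45.

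Ligated H/R against control H/R asks the same of livers that had gone through hemorrhage, with none of the arrays above. Whether it, or the next comparison, had a part in the choice of Ust5r is not recorded. All 6 genes fell, against 22.3% of genes tested that were called lower, and for each of the 6 every ligated H/R array was under every control H/R array, against 8.94% of genes. Their median difference was -4.69, against -0.03 over all genes. Cirrhotic livers had 24.2-fold less Car3 signal (log2 -4.59 ± 0.54 SE, adjusted p = 1.5e-08) and 22.1-fold less Cyp2c11 (-4.47 ± 0.51, adjusted p = 1e-08), both by limma with Benjamini-Hochberg adjustment over all genes. Obp3 had the most negative difference of all genes, 63.8-fold (-6.00 ± 0.59, adjusted p = 5.2e-10). Ust5r fell by 2.38 ± 0.40, or 5.21-fold (adjusted p = 8.7e-06). For the genes at background in ligated livers only a bound holds: Slc22a8, on its brighter probe set, was at least 16.6-fold lower (adjusted p = 3.1e-14) and Stac3 at least 13.5-fold lower (adjusted p = 5.5e-15). For such bounds, each array of the dim group enters with the higher of its own signal and its nonspecific level.

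Simvastatin H/R livers were set against the same control H/R arrays, so this comparison shares its controls with the last. All 6 genes fell, against 28.1% of genes called lower, and their ranges did not overlap, which held for 10.4% of genes. Car3 was at least 487-fold lower (adjusted p = 1.4e-16) and Obp3 at least 240-fold lower (adjusted p = 3.2e-14). Cyp2c11 was 365-fold lower (adjusted p = 5e-16), though its simvastatin H/R mean lay close to the nonspecific level. Ust5r fell 16.8-fold (adjusted p = 5.2e-11), Slc22a8 at least 26.0-fold on its brighter probe set (adjusted p = 2.8e-16) and Stac3 at least 21.6-fold (adjusted p = 1e-16). The titles of the samples end in a number, shared by some arrays of different groups, whose meaning the labels do not give. Within the ending 13, the 6 simvastatin H/R livers that carry it differed from the 6 control H/R livers by -9.37 for Car3, -8.43 for Cyp2c11, -8.37 for Obp3, -4.19 for Ust5r, -5.41 for Slc22a8 and -5.31 for Stac3. Untreated ligated livers share no ending with control livers, so the ending and cirrhosis cannot be told apart in the comparisons of those groups.

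**Figure D2:**
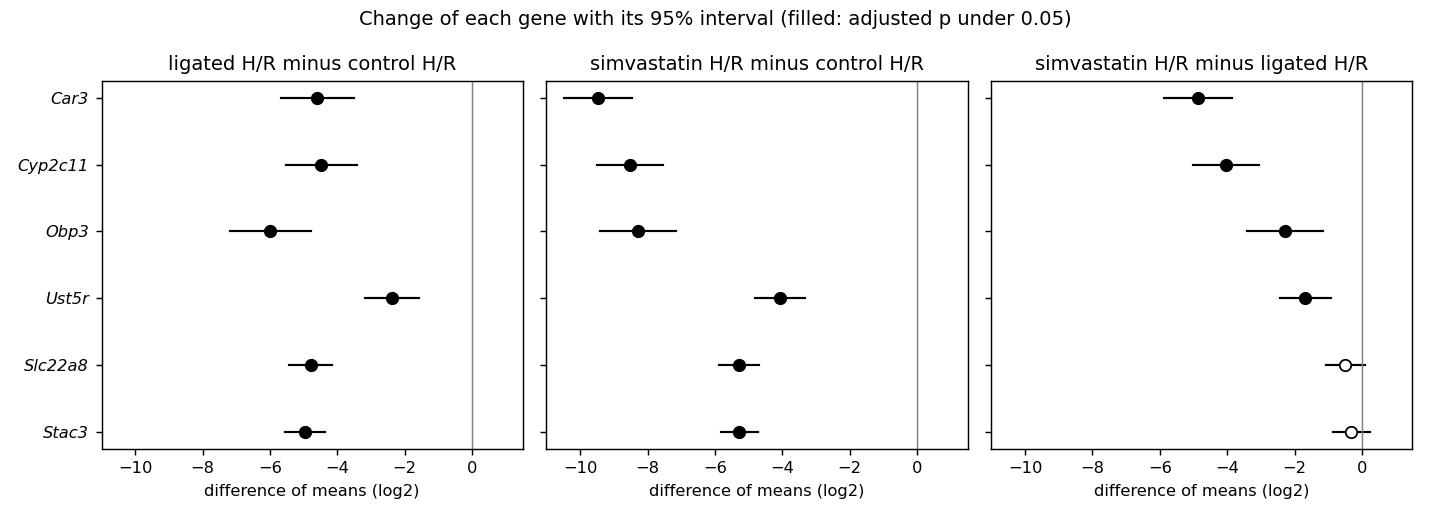
Difference of group means on the log2 scale for each gene, with its 95% interval from limma (line), in 3 comparisons; filled points had an adjusted p under 0.05. In simvastatin H/R minus ligated H/R, Car3 (-4.87) and Cyp2c11 (-4.04) lie farthest from 0, while Slc22a8 (-0.49) and Stac3 (-0.31), at background in both groups, have intervals that include 0.

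Simvastatin was then compared with no drug among ligated rats. After hemorrhage, 4 of the 6 genes were lower with the drug, against 0.506% of genes tested (68 genes called lower). Car3 fell at least 20.2-fold, with a difference of -4.87 ± 0.50 (SE, adjusted p = 3.4e-08), and Cyp2c11 fell 16.5-fold (-4.04 ± 0.48, adjusted p = 7.1e-07). These were the 2 most negative differences among the 13439 genes, and each was lower on all 8 simvastatin arrays than on any of the 6 arrays without the drug, which held for 0.335% of genes. Obp3 was at least 3.76-fold lower (-2.28 ± 0.56, adjusted p = 0.027), and Ust5r fell 3.22-fold (-1.69 ± 0.37, adjusted p = 0.013), with overlapping ranges for both. Whether this comparison had a part in the choice of Ust5r is not recorded. Slc22a8 and Stac3 were at background on both sides and allow no fold. The nonspecific level also differed, 2.71 to 3.65 on simvastatin H/R and 3.59 to 4.43 on ligated H/R arrays, and its part in these values was not tested.

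Both calls of the weaker pair depended on how the arrays were handled. With the title ending as a term over all arrays, the differences for Obp3 (-1.55, adjusted p = 0.74) and Ust5r (-1.62, adjusted p = 0.38) no longer passed, whereas Car3 (-5.86, adjusted p = 2.8e-05) and Cyp2c11 (-4.57, adjusted p = 0.001) did. Within the ending that both groups share, 12, the 2 simvastatin H/R livers differed from the 2 ligated H/R livers by -5.95 for Car3, -4.84 for Cyp2c11, -1.55 for Obp3 and -1.55 for Ust5r. Obp3 also lost its call without ligated H/R replicate 2 or 4 or simvastatin H/R replicate 1, 2 or 8 (adjusted p up to 0.1), with differences between -2.68 and -1.97 over all single omissions.

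In sham rats, Car3 was at least 6.47-fold lower with simvastatin (-3.20 ± 0.59, adjusted p = 0.0019) and Cyp2c11 was 6.00-fold lower (-2.59 ± 0.56, adjusted p = 0.013), again the 2 most negative differences of all genes. That made 2 of 6, against 0.149% of genes called lower. The other 4 genes did not pass: Obp3 differed by -1.43 (95% interval -2.75 to -0.11), Ust5r by -0.53 (-1.42 to 0.36), and Slc22a8 and Stac3 were at background on both sides. Ligated sham arrays served here as the reference and in the choosing comparison as the lower group. Both calls were lost when limma saw these 2 groups alone (adjusted p = 0.28 for Car3 and 0.4 for Cyp2c11), and that for Cyp2c11 without ligated sham replicate 3 (-1.80, adjusted p = 0.06). The 2 sham groups share no title ending, so the drug and whatever the ending stands for cannot be told apart there.

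**Figure D3:**
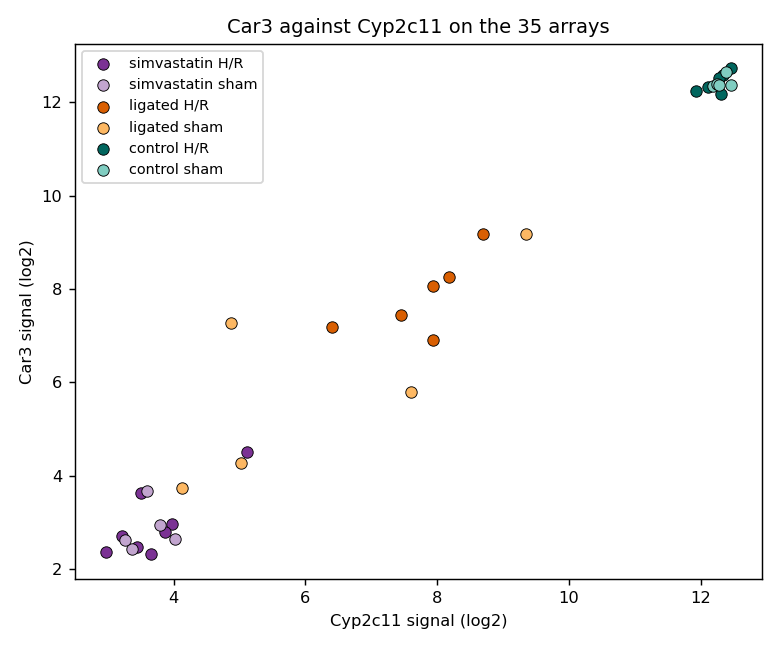
Car3 against Cyp2c11, as log2 signal, on the 35 arrays, coloured by group. Control livers form one group at the top right, all 13 simvastatin livers lie at or under 4.50 for Car3, and the 11 untreated ligated livers spread between, from 3.73 to 9.18.

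Hemorrhage and resuscitation was compared with the sham procedure in each kind of rat. The control sham and ligated sham arrays were taken as those on which the genes were chosen, as high in one and low in the other. The hemorrhage effects in control and in ligated rats, and the differences between effects given with them, are therefore not independent of that choice. In control livers 0 of 6 genes passed, against 0.856% of genes tested. Stac3 came nearest, 7.75 ± 0.69 in control H/R against 6.72 ± 1.04 in control sham livers (SD, n = 6 and n = 5), a difference of 1.03 with an interval of 0.40 to 1.65 (adjusted p = 0.11), and it was the 1 member at an unadjusted p under 0.05. It passed without control sham replicate 1 or 2. Car3 and Cyp2c11 differed by 0.00 (-1.14 to 1.14) and -0.08 (-1.17 to 1.01).

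In untreated ligated livers 0 of 6 passed, against 0.134% of genes, and 3 had an unadjusted p under 0.05. Car3 averaged 7.84 ± 0.83 in ligated H/R and 6.06 ± 2.23 in ligated sham livers (SD, n = 6 and n = 5), a difference of 1.78 (0.64 to 2.92, adjusted p = 0.22). Cyp2c11 differed by 1.57 (0.48 to 2.66, adjusted p = 0.28) and Obp3 by 1.28 (0.01 to 2.55, adjusted p = 0.48). Ligated sham replicate 5, the liver with the highest Car3, Cyp2c11 and Obp3 of its group, decided that outcome. Without it the differences were 2.56, 2.35 and 2.29, and all 3 genes passed. That describes these arrays only, since low ligated sham values were taken to have chosen the genes.

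In simvastatin-treated livers 0 of 6 genes passed and 0 had an unadjusted p under 0.05. There limma called 0 genes of all 13439 (0%), with 725 at an unadjusted p under 0.05. The difference between the hemorrhage effects of ligated and control rats called 0 of 6 genes (0.00744% of all, 1 gene), with Car3, Cyp2c11 and Stac3 at an unadjusted p under 0.05. That between simvastatin-treated and untreated ligated rats called 0 of 6 (0.00744%), with Car3 alone under it.

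The rest of the growth hormone system was read through lists of genes without the 6. In ligated H/R against control H/R livers, 12 of 27 measured genes of growth hormone signalling fell and 5 rose, with a list median of -0.44. Over all genes, 22.3% were called lower and 24.7% higher. Ghr, the receptor, fell (log2 change -1.67 ± 0.19, adjusted p = 1e-08), as did Irs1, an adaptor of insulin and IGF receptors (-1.94, adjusted p = 5.9e-09). Stat5b averaged 3.49 in ligated H/R livers, which is at background, and 5.08 in control H/R livers, so it was at least 2.12-fold lower (adjusted p = 2.5e-09). The nonspecific level of control H/R arrays averaged 4.59 and reached 5.16, against a mean of 4.00 on ligated H/R arrays. That bound therefore rests on a control signal near the floor. Igfals, which holds circulating IGF1 in a ternary complex, fell by 3.12 ± 0.28 (adjusted p = 5.2e-11), and Igf1 itself changed by -0.72 (adjusted p = 0.00017). Igfbp3, the binding protein of the same complex, rose by 2.25 ± 0.18 (adjusted p = 5.1e-12).

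Of 13 other male-biased genes, 11 were called lower and 0 higher (median -1.58), against 22.3% and 24.7% of all genes. For 2 of the 11, Mup5 and Cspg5, both groups were at background, so their differences measure no fold. The changes were -2.42 for Sult1e1, -2.28 for Cyp3a2, -2.24 for Slco1a1, a bile salt and anion uptake carrier, -2.11 for Cyp2a2 and -1.91 for Cyp3a18. Cyp2c11, taken as chosen for its fall with ligation, changed by -4.47. Of 11 female-biased genes, 3 were called lower and 3 higher (median -0.06), 1 of each with both groups at background. Sult2a6 rose by 2.07 and Trim24 by 1.46, whereas Cyp3a9 fell by 3.29. Cyp2c12, the classical female-specific P450, averaged 11.10 in ligated H/R and 10.90 in control H/R livers (0.20 ± 0.32, adjusted p = 0.64). It was higher in the other cirrhosis comparisons, by 1.04 ± 0.30 in simvastatin H/R against control H/R livers (adjusted p = 0.0038) and by 1.60 ± 0.35 in ligated sham against control sham livers (adjusted p = 0.00035). As with Cyp2c11, the Cyp2c12 signal can include that of close relatives in the family, so these values may not be those of Cyp2c12 alone. The Y-linked Uty and Eif2s3y gave 7.54 to 8.19 and 8.01 to 9.14 over all 35 arrays, while Xist stayed between 2.59 and 3.95. Eif2s3y was higher in simvastatin H/R than in ligated H/R livers, 8.80 against 8.33 (0.46 ± 0.10, adjusted p = 0.0084 by limma). It was also called higher in simvastatin sham against ligated sham livers, and the cause was not tested.

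In simvastatin H/R against ligated H/R livers, 1.35% of all genes passed in either direction, so few calls could arise in lists of this size. Of the male-biased, female-biased and growth hormone signalling genes 0 of 13, 0 of 11 and 0 of 27 passed, and 1 gene of each list did with array weights. One male-biased gene also passed when only the compared groups were fitted and with the title ending over all arrays. Ghr differed there by -0.04 ± 0.18, and Stat5b, at background in ligated H/R livers, allows no fold. Cyp2c13, the gene closest in pattern to Ust5r, differed by -0.96 (adjusted p = 0.083). Of the families of the set, 1 of 12 other carbonic anhydrases, 0 of 4 other Cyp2c genes, 0 of 14 other Slc22 genes (UST4r not counted) and 0 of 12 other lipocalins passed in that comparison. The carbonic anhydrase was Car4, a membrane-anchored isozyme, at 2.94 in simvastatin H/R livers (background) and 4.17 in ligated H/R livers. It was at least 1.73-fold lower (adjusted p = 0.0495), and 0 carbonic anhydrases were called lower with the compared groups alone, trend and robust moderation, dim genes left out, renewed normalization, the mean of probe sets or the title ending.

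**Figure D4:**
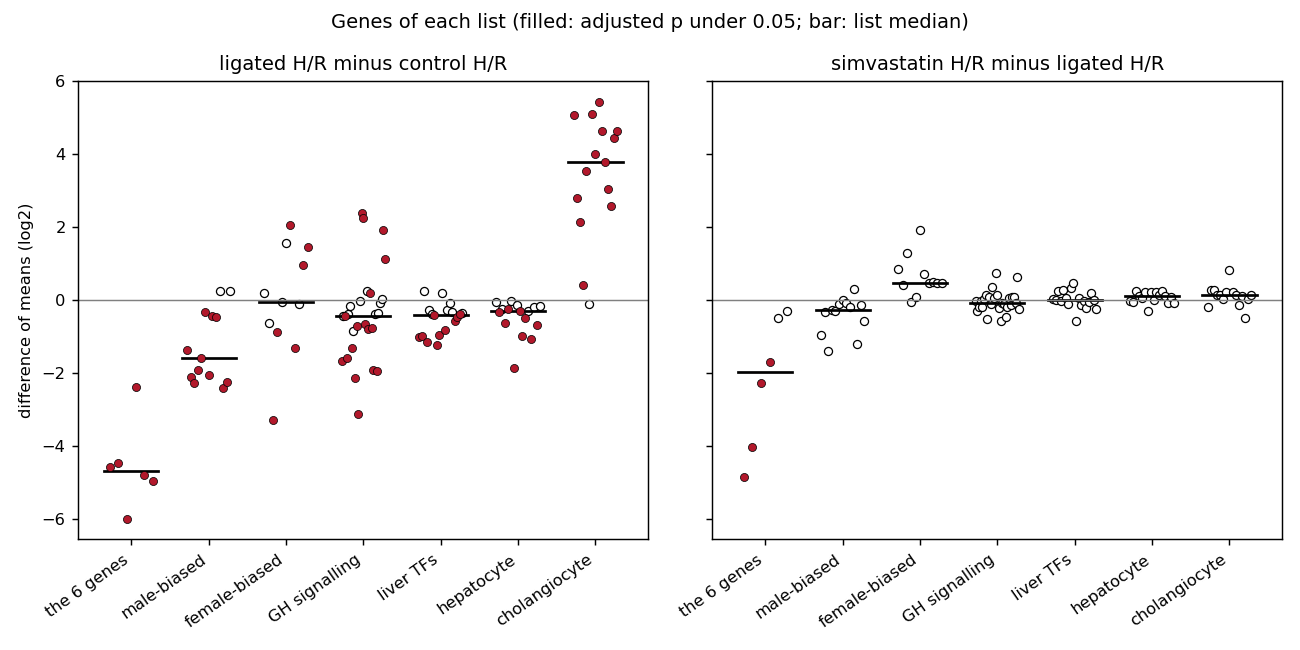
Difference of group means (log2) for every measured gene of 7 lists, in ligated H/R minus control H/R (left) and simvastatin H/R minus ligated H/R (right); filled points had an adjusted p under 0.05 and the bar is the list median. In the left panel the median was -4.69 for the 6 genes and -1.58 for the male-biased list, and their values overlapped. The 6 were taken as chosen for large falls with ligation, so the medians are not a like comparison. In the right panel filled points appear, among these lists, only in the 6 genes.

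In ligated H/R against control H/R livers, 22.3% of all genes were called lower and 24.7% higher. Relatives of the 6 genes were called in both directions too. Of 12 other carbonic anhydrases, 4 were called lower, 2 of them with both groups at background, and 1 higher. Car14 (-1.75) and Car5a, the mitochondrial isozyme (-1.67), fell, while Car2 rose. Of 14 other Slc22 genes, 6 were called lower, 3 of them with both groups at background, and 3 higher, and Slc22a7, another hepatic organic anion transporter, fell by 1.83. The cluster neighbour UST4r was not counted among the 14, and it was lower as well (-1.46, adjusted p = 0.00043 by limma). Of 12 other lipocalins, 6 were called lower, 1 of them with both groups at background, and 3 higher. Apom fell (-1.75), and Ptgds, at background in control H/R livers, was at least 3.13-fold higher. The liver-enriched transcription factors gave 10 of 18 lower, 3 of them with both groups at background, and 0 higher, with Hnf4a at -1.01 and Nr1i2, the pregnane X receptor, at -1.23.

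Hepatocyte markers that do not belong to the set were set beside it. In ligated H/R against control H/R livers 9 of 16 fell and 0 rose, with a median of -0.30. Over all genes, 22.3% were called lower and 24.7% higher. Otc fell by 1.86 and Fah by 1.08, while Alb differed by -0.06 ± 0.06 (adjusted p = 0.41 by limma). Alb averaged 13.70 and 13.76, close to 13.79, the highest value on any array, so its signal could be too near the ceiling to show a fall. The mean signal of the 16 markers had a median of 11.77 over simvastatin H/R, 11.79 over ligated H/R and 12.20 over control H/R arrays. That of 15 cholangiocyte markers ran from 8.44 to 9.44, from 8.49 to 9.33 and from 5.11 to 6.17 on the same groups. In the cirrhosis comparison 14 of 15 cholangiocyte and 15 of 17 stellate and matrix markers rose, Krt19 by 5.07. The part of these other cells in the fall of the 6 genes was not tested. Between simvastatin H/R and ligated H/R livers, 0 of 16 hepatocyte and 0 of 15 cholangiocyte markers passed. Of the 17 stellate and matrix markers 1 did, Col1a1, which was lower (-0.92 ± 0.21, adjusted p = 0.0199 by limma). That list gave 0 lower when only the compared groups were fitted, and 3 lower and 1 higher with array weights. Fat is a further tissue with much Car3. Of 7 measured fat cell markers, Adipoq, Plin1 and Lep were at background in all 6 groups and Fabp4, Lpl, Cfd and Cidec, some of which other liver cells also express, were above it in all. In ligated H/R against control H/R livers Lpl (2.45), Fabp4 (1.05) and Cfd (0.96) rose and Cidec fell (-1.50). The mean signal of the 7 ran from 5.61 to 6.28 over simvastatin H/R, from 5.79 to 6.11 over ligated H/R and from 5.36 to 5.89 over control H/R arrays, and its part in the Car3 values was not tested.

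The 6 genes followed each other across the 35 arrays, which is a description, since the groups set most of the spread. Pearson's r of log2 signal was 0.99 between Car3 and Cyp2c11, 0.96 between Cyp2c11 and Obp3, and between 0.84 and 0.94 for the other pairs. After the group means were taken out, Car3 and Cyp2c11 kept r = 0.74 and Cyp2c11 and Obp3 r = 0.66, while Slc22a8 and Stac3 had r = -0.11. The gene outside the set most like Car3 and Cyp2c11 was Gstp3, a glutathione transferase (r = 0.934 and 0.944 over 35 arrays). Akr1c3 was most like Slc22a8 (r = 0.965), Slc17a2 most like Stac3 (r = 0.944), and Cyp2c13 most like Ust5r (r = 0.939). Arrays share their processing, and controls differed from ligated arrays in the spike-in controls too: the log2 difference between the BioD and BioB hybridisation controls was 3.11 to 3.29 on control arrays and 3.43 to 3.93 on all ligated arrays. Its part in the cirrhosis comparisons was not tested.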

How the data were processed

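The authors deposited 1 table of normalized log2 signals per probe set for 35 arrays; the sources used here do not give their normalization, and per the labels RNA was labelled with biotin by the standard Affymetrix protocol. Values ran from 1.51 to 13.79 with array medians of 3.97 to 4.29; array numbers limit the precision. Of 31139 probe sets, 19069 carried 1 symbol, 572 several and 11498 none in the platform annotation; each of 13439 genes was represented by its brightest single-symbol probe set. Differences were estimated by limma 3.58.1 in R 4.3.3 (lmFit, eBayes) from group means of the 35 arrays in a single fit, with Benjamini-Hochberg adjustment over all genes and a threshold of 0.05. The test was tried on simulated data first. Groups came from the labels, replicate numbers from sample order; nothing states separate handling of samples beyond separate rats. The 6 genes and all lists were chosen with earlier results of these data known. Genes named beside the 6 are those most like each by correlation, the 4 smallest p-values of each list in ligated H/R against control H/R, list genes past the threshold in a simvastatin or hemorrhage comparison, Ghr, Stat5b, Igf1, Hnf4a, Cyp2c12, Alb, Krt19 and Y-linked genes whatever their p, and, chosen after their values were seen, neighbours on the chromosome, Cspg5, Sult1e1, Cyp3a2 and the markers named as at background. Alternatives covered the arrays fitted, moderation, array weights, a filter on dim genes, normalization, probe set choice, title endings and single omissions. One array, simvastatin sham replicate 1, stood apart in its 3′ to 5′ differences for beta-actin (4.30) and GAPDH (2.20). It also had the lowest array weight (0.21). Leaving it out kept the calls of Car3 and Cyp2c11 in simvastatin sham against ligated sham.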

Additional observations from a re-analysis of the deposited data

Results flagged for a closer look

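In 7 of 36 groups of values (6 genes in 6 groups), 1 array stood farther from the others than Dixon's 95% limit, and chance alone gives about 1 group in 20. Ligated sham replicate 5 had an Obp3 signal of 8.10, with the next at 3.42. Ligated sham replicate 3 had a Slc22a8 signal of 5.02, with the next at 2.94. Simvastatin H/R replicate 7 had a Cyp2c11 signal of 5.12, with the next at 3.97, and the highest Car3 signal of its group as well, 4.50. Control sham replicate 4 had a Car3 signal of 12.65, with the next at 12.40. Control H/R replicate 6 was low for Slc22a8 at 6.81, with the next at 8.04. Ligated H/R replicate 6 was low for Slc22a8 at 2.77 and ligated H/R replicate 2 high for Stac3 at 3.49, both under the nonspecific level.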

How the results depend on the processing

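No paired analysis was possible because the labels give the groups no shared replicate numbers. The 6 falls in ligated H/R and in simvastatin H/R against control H/R kept their direction and their calls under every alternative run. Ligated H/R and control H/R share no title ending, so the fit with that term links them only through simvastatin arrays. It is therefore no direct check of that comparison. In simvastatin sham against ligated sham, the count of 2 genes became 0 with only these groups and 0 with the title ending over all arrays (a setting chosen after seeing the data), and 1 to 2 with single arrays left out. In simvastatin H/R against ligated H/R, 4 became 2 with the title ending, over ligated or over all arrays, and 3 to 4 with single omissions. Hemorrhage gave 0 to 1 genes in control and 0 to 3 in untreated ligated rats with single omissions. In the choosing comparison, Ust5r was -1.93 (adjusted p = 0.12) with the title ending. Reversed were Uty in simvastatin H/R against control H/R (-0.24, mean of probe sets) and, with the title ending in ligated sham against control sham, Cyp3a9 (0.43) and Des (-0.43); the cause was not tested. Over all genes, the title ending over all arrays gave 1129 calls against 6402 in ligated sham and 3480 against 6310 in ligated H/R, each set against its control, and 23 against 182 for simvastatin H/R, 11 against 105 for simvastatin sham and 4 against 18 for hemorrhage in ligated rats; over ligated arrays alone it gave 20 for simvastatin H/R. Array weights gave 744, 397 and 43 in these last 3, and 6 against 0 for hemorrhage with simvastatin; fits of the compared groups alone gave 22 for simvastatin sham, 3 for hemorrhage in ligated and 11 against 115 in control rats. Single omissions gave 50 to 190 genes for hemorrhage in control and 2 to 45 in ligated rats, 66 to 168 for simvastatin sham and 100 to 342 for simvastatin H/R. The 2 differences between hemorrhage effects, 1 gene each, gave 0 to 2 and 0 to 3 over the settings other than single omissions, and 0 to 5 and 1 to 2 with single omissions. With the title ending over all arrays, 5 male-biased genes (against 11), 4 liver transcription factors (against 10) and 3 hepatocyte markers (against 9) were lower in ligated H/R; with dim genes left out, 2 carbonic anhydrases (against 4) and 3 Slc22 genes (against 6) were. Centring on array medians moved the median of all genes to -0.23, -0.19 and -0.22 in the 3 cirrhosis comparisons, small beside the members' changes. Signals at the nonspecific level limit folds of Slc22a8 and Stac3 to bounds, and those of Car3 and Obp3 where a simvastatin group enters. Folds of Cyp2c11 with those groups rest on signals close to that level.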
